A study of Mus musculus with 4 samples.

Results

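The genes described here are 9 members of 3 neuropeptide systems, picked by symbol from the 55471 rows of a table of gene counts: the melanocortin receptor genes Mc3r and Mc4r with the accessory protein gene Mrap2, the corticotropin-releasing hormone gene Crh with Crhr1, Crhr2 and Crhbp, and the prokineticin genes Prok2 and Prokr2. They were chosen with their levels in these libraries already known, so the differences between the fractions are given as descriptions, with no test. The labels name the source of the RNA as retinal amacrine cells of C57BL6 mice aged P6-7. GFP-positive and GFP-negative samples alike came from mice with Gbx2-CreERT2-IRES-EGFP, in which Gbx2 drives an inducible Cre recombinase and green EGFP, and with Ai9, whose red tdTomato is switched on by Cre. Red cells were sorted into a GFP-positive fraction (2 libraries, replicates 2 and 3) and a GFP-negative fraction (2 libraries, replicates 2 and 6), with 750 to 2500 cells per RNA sample and a sample of each fraction from every animal, per the series text. How Cre was induced is not stated in those texts. Both fractions were sorted for a label that depends on the Gbx2 driver, so neither stands for amacrine cells at large.

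All 3 systems signal through G protein-coupled receptors. Melanocortin receptors bind peptides cut from pro-opiomelanocortin, are blocked by the agouti-related peptide and couple mainly to Gs and cAMP. CRH acts on the receptors encoded by Crhr1 and Crhr2, also through Gs, while a secreted binding protein, the product of Crhbp, holds the peptide away from them. The prokineticin receptors couple mainly to Gq and calcium release, and prokineticin 2 is known for its part in circadian output and in the growth of the olfactory bulb. CRH is a long-known marker of a set of amacrine cells in the mouse retina.

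The libraries held 41040667 to 44689917 counts. CPM is the count relative to the TMM-scaled library size, and each ± after a mean is the SD with n = 2 libraries. A gene with no count in a library is compatible with up to 3 counts, or 0.0631 to 0.0838 CPM by library, which covers counting error only. Gbx2 stood at 602 and 496 CPM in GFP-positive replicates 2 and 3, against 28.7 and 55.5 CPM in GFP-negative replicates 2 and 6. All 12 markers of GABAergic and glycinergic amacrine cells were counted. Their sum was 4305 CPM for GFP-positive replicate 2 and 2322 CPM for replicate 3, against 7738 and 14162 CPM in GFP-negative replicates 2 and 6. The 15 rod photoreceptor markers, none at 0, summed to 10294 and 17074 CPM in the GFP-positive libraries, against 9048 and 2201 CPM in the GFP-negative libraries. The rod sum was above the amacrine sum in both GFP-positive libraries and in GFP-negative replicate 2. Despite the label, the libraries thus also held much photoreceptor RNA, though sums over different markers do not measure shares of cells. Müller glia markers averaged 740 CPM in GFP-positive and 1807 CPM in GFP-negative cells, ganglion cell markers 160.3 and 329 CPM, and horizontal cell markers 81.6 and 173 CPM. Most of these differences lay, in that order, in Dkk3 (187 and 1293 CPM), Nefl (63.6 and 215 CPM) and Tfap2b (44.2 and 149 CPM). Tfap2b is also among the amacrine markers. Other markers averaged higher in GFP-positive cells, among them Rlbp1, Slc1a3 and Apoe of Müller glia and Rbpms of ganglion cells. So did Onecut1, Onecut2 and Lhx1 of horizontal cells. Bipolar markers averaged 1619 CPM in GFP-positive and 775 CPM in GFP-negative cells, cone markers 535 and 214 CPM, endothelial and pericyte markers 466 and 103 CPM, and pigment epithelium markers 258 and 148 CPM, with Tyr at 0 throughout. Igfbp7 (314 and 11.4 CPM) held most of the endothelial and pericyte difference. The rest of that list was mixed, with Kdr at 93.5 and 69.1 CPM and Pecam1 at 0.549 and 0.801 CPM. Dct (130 and 45.9 CPM) held most of the pigment epithelium difference, and Rlbp1 is in that list too. Microglia markers averaged 88.9 CPM in GFP-positive and 110.4 CPM in GFP-negative cells, and astrocyte markers 7.42 and 25.5 CPM. The cone, microglia and astrocyte sums overlapped between the fractions. The other sums did not overlap and so moved with the fractions. Those of Müller glia, ganglion, horizontal, endothelial and pigment epithelium markers did so mostly through Dkk3, Nefl, Tfap2b, Igfbp7 and Dct. These sums therefore do not show that the cell type itself differed. The part of all these sums in the values below was not tested. In sorted pools, fewer cells with a transcript and less of it per cell cannot be told apart.

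Of the 9 genes, 7 were lower in both GFP-positive libraries than in either GFP-negative library, Crhbp had at most 35 counts in a library, and Prok2 had no count in any library. Crh, Crhr1, Crhr2 and Mc3r were still counted in both GFP-positive libraries, at fitted ratios of 6.68-fold to 28.3-fold lower, and Mrap2 in 1 of them. Mc4r and Prokr2 had 401 to 2404 counts in each GFP-negative library and 0 in both GFP-positive libraries. A looser pattern asks for no count in either GFP-positive library and more than 3 counts in each GFP-negative library. It held for 0.853% of all tested genes (153 of 17940).

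**Figure D1:**
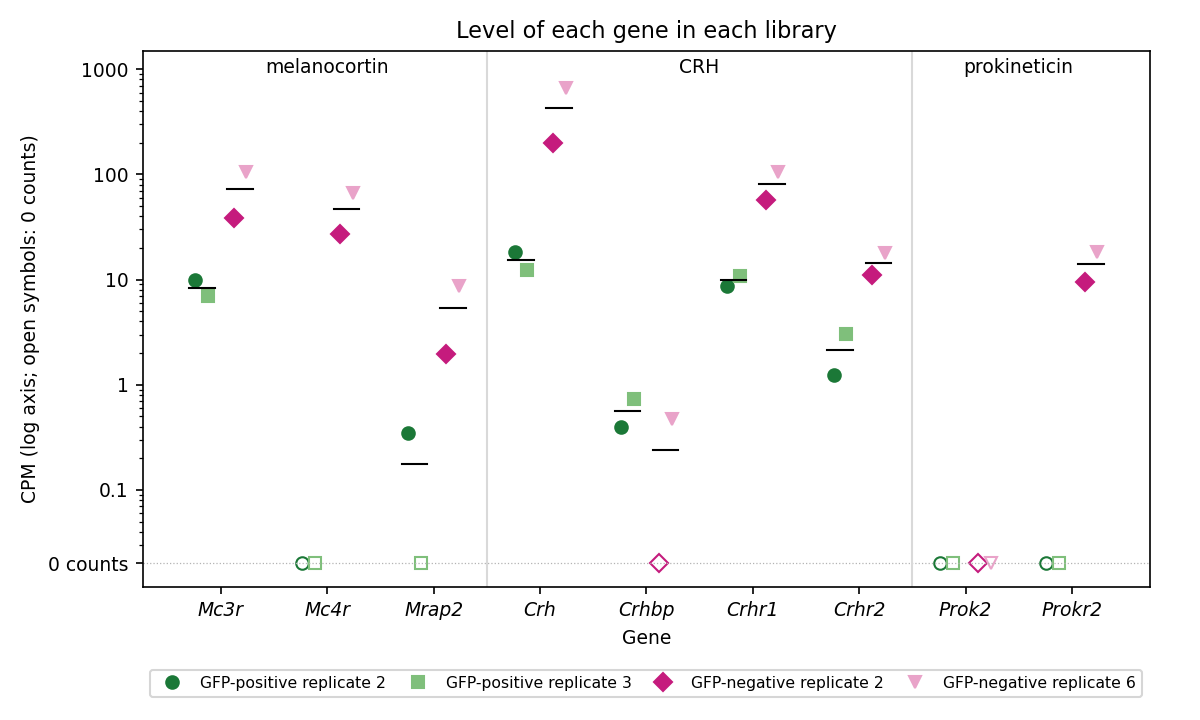
CPM (log axis) of each gene in the 4 libraries, GFP-positive left of GFP-negative within each gene. Filled symbols are libraries, open symbols on the lowest line are libraries with 0 counts, and bars are means of a fraction. The GFP-negative libraries lie above the GFP-positive ones for 7 of the 9 genes, and Mc4r and Prokr2 sit on the line of 0 counts in both GFP-positive libraries.

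Among the receptors, Mc3r (ENSMUSG00000038537, 1 exon on chromosome 2, 172248492 to 172251114, plus strand, GRCm38) encodes the melanocortin 3 receptor, which in the brain is known for energy balance. It had 451 and 330 counts in GFP-positive replicates 2 and 3 (9.86 and 6.94 CPM), against 1601 and 3794 counts in GFP-negative replicates 2 and 6 (38.3 and 106 CPM). The fractions did not overlap, and Mc3r remained well above its floor in the GFP-positive libraries. It averaged 8.40 ± 2.07 CPM in GFP-positive and 72.1 ± 47.9 CPM in GFP-negative cells, a fitted log2 fold change of -3.10 ± 0.52 (standard error), or 8.58-fold lower.

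Mc4r (ENSMUSG00000047259, 1 exon on chromosome 18, 66857704 to 66860506, minus strand) encodes the melanocortin 4 receptor, the main receptor of appetite control in the hypothalamus. It had no count in either GFP-positive library, against 1141 and 2404 counts in GFP-negative replicates 2 and 6 (27.3 and 67.1 CPM). With 3 counts over the GFP-positive group as the floor, it was at least 1419.6-fold lower there, a bound that covers counting error only. The bound was 848-fold without GFP-negative replicate 6, 2087-fold without GFP-negative replicate 2, and 724-fold or 696-fold with 1 of the GFP-positive libraries left out. The pair of melanocortin receptors was thus not reduced in proportion. Mc4r had 0.713 and 0.634 counts for each Mc3r count in GFP-negative replicates 2 and 6. In GFP-positive replicates 2 and 3, where Mc3r itself was counted, the limits that 0 counts allow were 0.00665 and 0.00909.

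Mrap2 (ENSMUSG00000042761, chromosome 9, 87144306 to 87184045, plus strand) encodes a single-pass membrane protein that associates with melanocortin receptors and changes their signalling, and in the mouse also lowers prokineticin receptor activity. It had 16 and 0 counts in GFP-positive replicates 2 and 3, against 83 and 314 counts in GFP-negative replicates 2 and 6. In CPM, Mrap2 was the lowest of the 7 genes in both GFP-negative libraries, and those libraries were farther apart for it than for the other 6. It averaged 0.175 ± 0.247 CPM in GFP-positive and 5.38 ± 4.8 CPM in GFP-negative cells, and its log2 fold change of -4.92 ± 1.30 had the widest standard error among the genes counted in both fractions, apart from Crhbp.

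Crh (ENSMUSG00000049796, 2 merged exons on chromosome 3, 19693401 to 19695396, minus strand), the ligand, was the most abundant of the 9 genes in every library, also per kilobase of exon. It had 834 and 582 counts in GFP-positive replicates 2 and 3 (18.2 and 12.2 CPM), against 8315 and 23802 counts in GFP-negative replicates 2 and 6 (199 and 665 CPM). The fractions did not overlap, but the GFP-negative libraries themselves were 3.34-fold apart. The means were 15.2 ± 4.24 CPM in GFP-positive and 432 ± 329 CPM in GFP-negative cells, with a log2 fold change of -4.82 ± 0.62, or 28.3-fold lower.

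Crhr1 (ENSMUSG00000018634, chromosome 11, 104132855 to 104175523, plus strand) encodes the receptor with high affinity for CRH. It had 398 and 520 counts in GFP-positive replicates 2 and 3 (8.71 and 10.9 CPM), against 2374 and 3773 counts in GFP-negative replicates 2 and 6 (56.8 and 105 CPM). The replicates of each fraction lay closer together than those of Crh or Mc3r, and the log2 fold change was -3.04 ± 0.41, or 8.24-fold lower. Ligand and receptor were therefore counted together in both fractions, in different proportion. There were 2.10 and 1.12 Crh counts for each Crhr1 count in GFP-positive replicates 2 and 3, against 3.50 and 6.31 in GFP-negative replicates 2 and 6, with no overlap between the fractions. This ratio is taken within a library and does not depend on how libraries are scaled.

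Crhr2 (ENSMUSG00000003476, chromosome 6, 55090049 to 55133016, minus strand) encodes the second receptor, which prefers the urocortins over CRH. It had 57 and 145 counts in GFP-positive replicates 2 and 3 (1.25 and 3.05 CPM), against 458 and 644 counts in GFP-negative replicates 2 and 6 (10.9 and 18 CPM). Its log2 fold change was -2.74 ± 0.62, or 6.68-fold lower. The ratio of Crhr2 to Crhr1 counts overlapped between the fractions, at 0.143 and 0.279 in GFP-positive replicates 2 and 3 and 0.193 and 0.171 in GFP-negative replicates 2 and 6. No such overlap was found for Mc4r over Mc3r.

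Crhbp (ENSMUSG00000021680, chromosome 13, 95431371 to 95444924, minus strand), the gene of the binding protein, had 18 and 35 counts in GFP-positive replicates 2 and 3 (0.394 and 0.736 CPM), against 0 and 17 counts in GFP-negative replicates 2 and 6 (0 and 0.475 CPM). The fractions overlapped, and the log2 fold change of 1.35 ± 1.35 was no larger than its standard error. It was the only one of the 8 tested genes whose fitted value was above 0. Crh outnumbered Crhbp by a wide margin in each library, and Crhbp had 0.0216 and 0.0601 counts for each Crh count in GFP-positive replicates 2 and 3. In the GFP-negative libraries the limit was 0.000361 for replicate 2 and the ratio was 0.000714 in replicate 6.

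Prokr2 (ENSMUSG00000050558, chromosome 2, 132337733 to 132385447, minus strand), the receptor gene of prokineticin 2, had no count in either GFP-positive library, against 401 and 657 counts in GFP-negative replicates 2 and 6 (9.59 and 18.3 CPM). It was at least 424-fold lower in GFP-positive cells on the same floor, with bounds of 208-fold to 570.5-fold when a library was left out. Its ligand gene Prok2 (ENSMUSG00000030069, chromosome 6, 99711299 to 99726392, minus strand) had no count in any library, so the receptor was detected in GFP-negative cells without the ligand being detectable in either fraction. Within the GFP-negative libraries Prokr2 kept a near constant ratio to Crhr1, at 0.169 and 0.174 counts for each Crhr1 count in replicates 2 and 6. The limits were 0.00754 and 0.00577 in GFP-positive replicates 2 and 3.

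Promoters are shown for the receptor genes that were lower in GFP-positive cells, to let their sequence composition be compared. RefSeq (GRCm38.p6) gave a promoter for 7 of the 9 genes, Crh and Mc4r being the other two. The 250 bases before the start are printed 5′ to 3′ on the gene's strand, with capitals for a match to any of 5 motifs searched on both strands. These were the cAMP response element TGACGTCA, the AP-2 motif GCCNNNGGC, the homeobox motif TAATTA, the T-box motif AGGTGTGA and the TATA box TATAAA.
Mc3r, chr2:172248242-172248491, plus strand: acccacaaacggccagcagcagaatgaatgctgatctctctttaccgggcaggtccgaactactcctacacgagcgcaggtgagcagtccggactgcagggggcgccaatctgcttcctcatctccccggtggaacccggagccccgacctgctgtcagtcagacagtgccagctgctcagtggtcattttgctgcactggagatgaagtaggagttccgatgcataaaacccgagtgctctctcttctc
Crhr1, chr11:104132531-104132780, plus strand: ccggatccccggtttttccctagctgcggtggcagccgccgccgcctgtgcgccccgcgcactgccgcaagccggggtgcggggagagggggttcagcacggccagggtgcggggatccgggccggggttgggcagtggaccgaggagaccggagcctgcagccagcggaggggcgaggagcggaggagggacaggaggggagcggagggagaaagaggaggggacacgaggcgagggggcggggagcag
Crhr2, chr6:55133017-55133266, minus strand: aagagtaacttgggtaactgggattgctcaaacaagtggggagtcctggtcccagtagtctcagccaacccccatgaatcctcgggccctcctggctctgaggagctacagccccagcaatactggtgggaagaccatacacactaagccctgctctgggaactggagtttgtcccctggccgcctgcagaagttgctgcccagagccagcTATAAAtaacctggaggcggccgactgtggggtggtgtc
Prokr2, chr2:132385448-132385697, minus strand: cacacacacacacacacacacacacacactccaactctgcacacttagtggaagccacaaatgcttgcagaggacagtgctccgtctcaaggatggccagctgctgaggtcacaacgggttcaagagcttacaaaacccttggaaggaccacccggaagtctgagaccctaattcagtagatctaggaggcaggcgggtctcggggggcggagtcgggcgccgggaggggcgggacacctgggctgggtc
The one match among these 4 was a TATA box in Crhr2, from 39 to 34 bases before the start; 12.4% of the 32851 promoters in the table hold TATAAA in this window. The shares for the other motifs were 1.55% for the cAMP response element, 13.7% for AP-2, 4.84% for the homeobox motif and 1.12% for the T-box motif. Crhr1 was richest in G and C, at 74.8% with 25 CpG pairs, against 57.6% with 4 pairs in Crhr2, 57.6% with 12 in Mc3r and 59.2% with 10 in Prokr2. The median over all promoters was 52.4% with 6 pairs. These 4 lower receptor genes thus shared none of the 5 motifs, and Mc4r had no promoter to search. This says only that none of these motifs is in the window of all 4 genes.

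Levels can be ordered between genes only per length, as CPM per kilobase of annotated exon. In GFP-positive cells, Crh stood at 11.5 ± 3.22, above Crhr1 (3.99 ± 0.64) and Mc3r (3.20 ± 0.79), whose values overlapped. Crhr2 (0.420 ± 0.249) and Crhbp (0.314 ± 0.134) also overlapped, and Mrap2 lay below them at 0.0775 ± 0.110. In GFP-negative cells, Crh stood at 327 ± 250, above Crhr1 (33.0 ± 14), Mc3r (27.5 ± 18.2) and Mc4r (16.8 ± 10.1), which overlapped with their neighbours. Crhr2 (2.83 ± 0.97), Mrap2 (2.38 ± 2.13) and Prokr2 (1.76 ± 0.78) followed and overlapped as well.

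**Figure D2:**
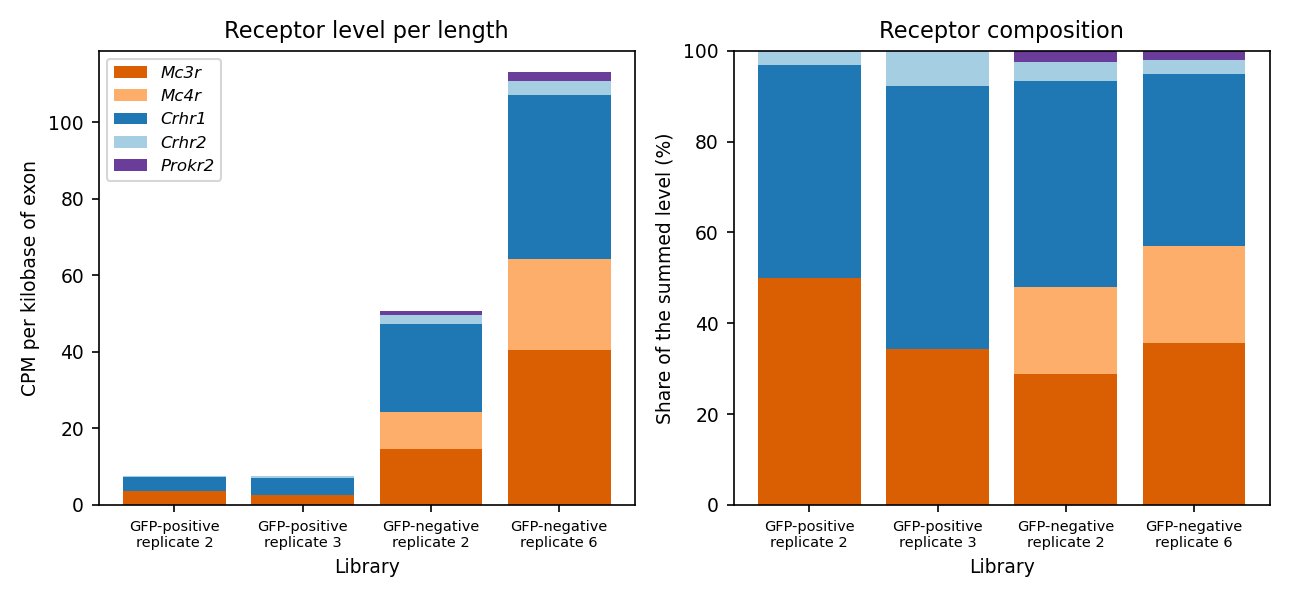
Level of the 5 receptor genes in each library, as CPM per kilobase of exon (left, stacked) and as a share of their sum (right, in percent). The sum was 7.54 and 7.69 in the GFP-positive libraries, against 50.7 and 113 in the GFP-negative libraries, and the blocks of Mc4r and Prokr2 are missing from the GFP-positive bars.

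Mc4r, and as a small part Prokr2, were missing from the make-up of the receptors in the GFP-positive libraries. Crhr1 held 46.9% and 57.8% of the summed level per kilobase in GFP-positive replicates 2 and 3, against 45.5% and 37.9% in GFP-negative replicates 2 and 6. These Crhr1 shares did not overlap. Mc3r held 49.9% and 34.4% in the GFP-positive libraries, against 28.8% and 35.7% in the GFP-negative libraries, and the Mc3r shares overlapped. Mc4r held 19.2% and 21.2% in GFP-negative replicates 2 and 6 and Prokr2 2.39% and 2.05%, all of it missing from the GFP-positive libraries. These shares add to a whole and so do not vary freely of each other.

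The 7 lower genes also varied together within the GFP-negative fraction. All 7 were higher in replicate 6 than in replicate 2, by 1.64-fold (Crhr2) to 4.42-fold (Mrap2), where 48.7% of the tested genes were higher in replicate 6 and 11.6% were so by at least 1.64-fold. The amacrine marker sum was also higher in replicate 6 and the rod marker sum lower. Taken relative to the amacrine marker sum of its own library, a scaling chosen after the values were seen, Crh stood at 0.424% and 0.527% in GFP-positive replicates 2 and 3, against 2.57% and 4.69% in GFP-negative replicates 2 and 6. Mc3r stood at 0.229% and 0.299% in the GFP-positive libraries, against 0.495% and 0.748% in the GFP-negative libraries, and Crhr1 at 0.202% and 0.471%, against 0.733% and 0.744%. The fractions of these 3 genes stayed apart, while those of Crhr2 overlapped, at 0.0290% and 0.131% in the GFP-positive libraries and 0.141% and 0.127% in the GFP-negative libraries. Of the 12 markers in the sum, 5 were themselves lower in GFP-positive cells by edgeR, so the sum is no neutral scale.

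Over all 17940 genes tested by edgeR's quasi-likelihood test, 1.1% were called, 0.87% lower and 0.234% higher in GFP-positive cells at an adjusted p of 0.05. Among the 8 of the 9 genes that passed the filter on low counts, 5 (Mc3r, Mc4r, Crh, Crhr1 and Prokr2) were among the lower calls. Their ranges were separate and lower for 7 of 8, where 21.3% of all tested genes were. Nothing is read from either count, since the genes were picked with this contrast known. The median log2 fold change of the 8 genes was -3.96, with Mc4r and Prokr2 at their bounds as well as at their fitted values, beside 0.04 over all genes tested. The calls also depended on the method: edgeR's legacy fit kept 2 (Mc4r and Prokr2), limma-voom 2 (Crh and Crhr1) and no filter on low counts 4 (all but Mc3r), while DESeq2 called 7. Leaving out GFP-positive replicate 3 or GFP-negative replicate 6 left 0 of the 9 genes called, leaving out GFP-positive replicate 2 left 2, and leaving out GFP-negative replicate 2 gave 5.

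**Figure D3:**
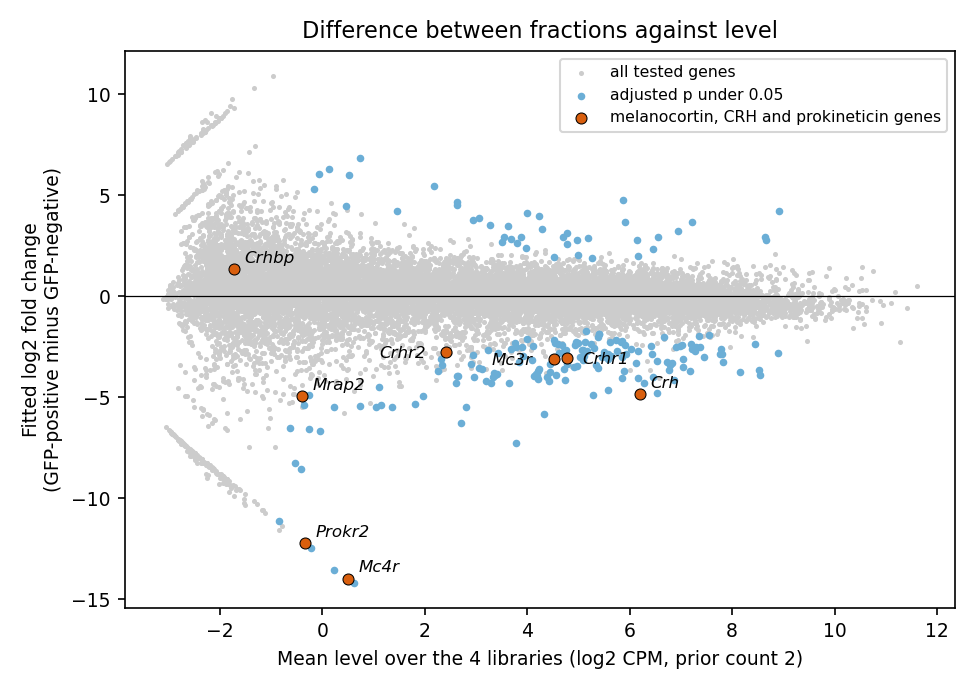
Fitted log2 fold change (GFP-positive minus GFP-negative) against mean level (log2 CPM over the 4 libraries) for the 17940 tested genes, with calls at an adjusted p of 0.05 in blue and the 8 tested peptide-system genes in orange. Mc4r and Prokr2 lie on the lower edge, made of genes with 0 counts in GFP-positive cells, whose fitted values depend on the prior count and are no measure of size.

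**Figure D4:**
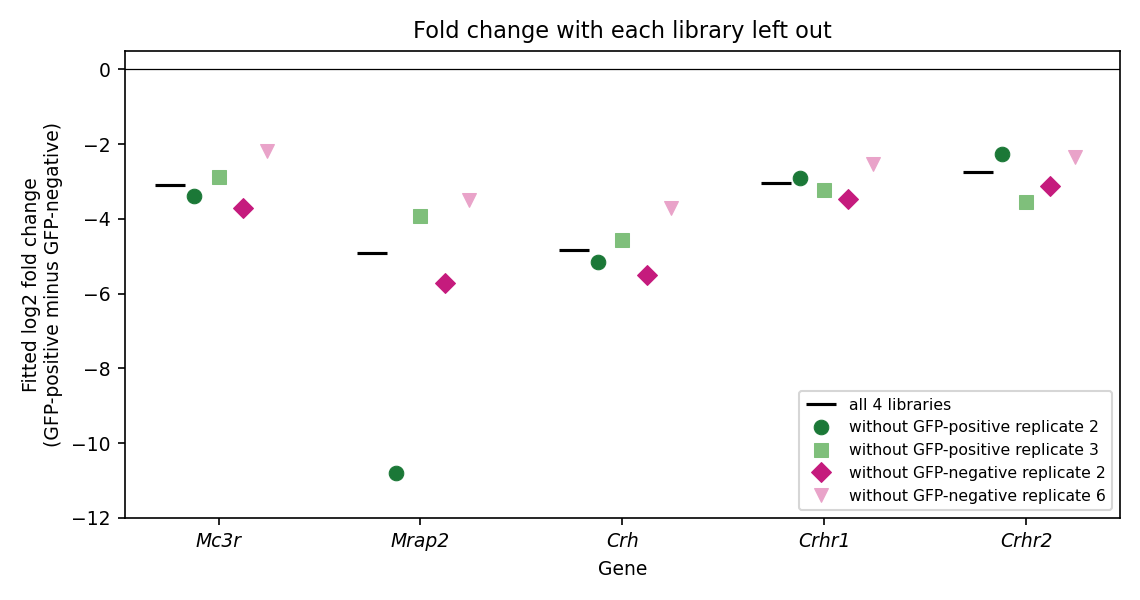
Fitted log2 fold change of the 5 lower genes counted in both fractions, with all 4 libraries (bars) and with each library left out (symbols). Every value is below 0. Those without GFP-negative replicate 6 are nearest to 0 for Mc3r, Mrap2, Crh and Crhr1, from -2.19 for Mc3r to -3.70 for Crh, and Mrap2 reaches -10.81 without GFP-positive replicate 2, where the remaining GFP-positive library has 0 counts.

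The other genes of the 3 pathways were taken from 8 lists written from general knowledge, holding 85 genes of which 74 were tested. The lists were chosen with earlier results of these data known, so the shares called are given as descriptions. By edgeR's test, 4 of the 74 were lower in GFP-positive cells and 0 were higher, where 0.87% and 0.234% of all tested genes were. Their median log2 fold change was -0.29, beside 0.04 over all genes tested. The amacrine and rod marker sums given above moved with the fractions here too, and their part was not tested.

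Peptide processing was uneven. Of its 8 tested genes 1 fell, Pcsk1, which encodes the prohormone convertase 1/3 that cuts neuropeptide precursors. It had 0 counts in both GFP-positive libraries, against 645 and 1934 counts in GFP-negative replicates 2 and 6, and was at least 1033-fold lower (edgeR adjusted p = 0.0154). This bound was 479-fold without GFP-negative replicate 6, 1679-fold without GFP-negative replicate 2, and 527-fold or 506-fold with 1 of the GFP-positive libraries left out. The remaining 7 did not pass. Cpe, the carboxypeptidase that trims the cut peptides and the most abundant of the list per kilobase of exon, stood at 1215 ± 163 CPM in GFP-positive and 1714 ± 608 CPM in GFP-negative cells (edgeR adjusted p = 0.693). Pcsk2, the second convertase, stood at 198 ± 92.8 CPM in GFP-positive and 260.4 ± 123 CPM in GFP-negative cells (edgeR adjusted p = 0.784). Pam, which amidates peptides such as CRH, stood at 33.9 ± 2.14 CPM in GFP-positive and 12.7 ± 1.25 CPM in GFP-negative cells (log2 fold change 1.42 ± 0.36, edgeR adjusted p = 0.145).

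Other ligands and receptors of the systems were low or at 0 in both fractions. Pomc, the precursor of the melanocortins, had 74 and 102 counts in GFP-positive replicates 2 and 3, against 78 and 39 counts in GFP-negative replicates 2 and 6. Agrp, which encodes the melanocortin antagonist, had 22 and 45 counts, against 50 and 9. For both, the fractions overlapped (edgeR adjusted p = 0.907 for Pomc and 0.991 for Agrp). The melanocortin receptor gene Mc1r had 62 and 67 counts, against 26 and 18 (edgeR adjusted p = 0.599). Mc5r had 40 and 28 counts, against 0 and 18 (edgeR adjusted p = 0.655). In CPM both were higher in each GFP-positive library, unlike Mc3r and Mc4r, as were 22.5% of all tested genes. Mc2r had no count in any library. None of the 8 tested genes of this list passed, and the most abundant of them per kilobase of exon, Mgrn1, a ubiquitin ligase of the melanocortin pathway, stood at 151 ± 39.6 CPM in GFP-positive and 233 ± 30.3 CPM in GFP-negative cells (edgeR adjusted p = 0.498). No urocortin gene was tested: Ucn and Ucn3 had no count, and Ucn2 had 11 and 0 counts in GFP-positive replicates 2 and 3, against 9 and 1 in GFP-negative replicates 2 and 6. Prokr1, the second prokineticin receptor gene, was counted in GFP-negative replicate 6 alone, 112 times, and Prok1 had at most 10 counts in a library.

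Downstream of the receptors, 3 genes fell, 1 in each of the cAMP, phosphodiesterase and Gq lists. Adcy2, an adenylyl cyclase gene, was the 1 of 24 in the Gs, cAMP and protein kinase A list. It averaged 71.6 ± 3.59 CPM in GFP-positive and 405 ± 175 CPM in GFP-negative cells (log2 fold change -2.50 ± 0.40, edgeR adjusted p = 0.0283). Prkcb, a protein kinase C gene, was the 1 of 13 in the Gq list. It averaged 76.4 ± 40.0 CPM in GFP-positive and 729 ± 161 CPM in GFP-negative cells (log2 fold change -3.25 ± 0.47, edgeR adjusted p = 0.0204). Pde1a, a calcium-activated phosphodiesterase gene, was the 1 of 14 phosphodiesterases, at 0.208 ± 0.294 CPM in GFP-positive and 9.17 ± 0.65 CPM in GFP-negative cells (log2 fold change -5.47 ± 0.97, edgeR adjusted p = 0.0342).

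The rest of the signalling genes did not pass. Prkar1a, which encodes a regulatory subunit of protein kinase A, was the most abundant of the cAMP list. It averaged 888 ± 131 CPM in GFP-positive and 1376 ± 391 CPM in GFP-negative cells (edgeR adjusted p = 0.579). Pde1b, the phosphodiesterase gene with the highest level per kilobase of exon averaged over the 4 libraries, though below Pde4b in GFP-negative cells, stood at 38.6 ± 13.3 CPM per kilobase in GFP-positive cells, against 25.1 ± 3.12 CPM per kilobase in GFP-negative cells (edgeR adjusted p = 0.519). None of the receptor kinase and arrestin genes was called (0 of 7), and Grk6, the most abundant of them, was at 80.8 ± 11.6 CPM in GFP-positive and 80.2 ± 3.72 CPM in GFP-negative cells (edgeR adjusted p = 0.995). Leaving out GFP-positive replicate 3 or GFP-negative replicate 6 left no call in these lists, and leaving out GFP-positive replicate 2 left 1 call, which was not one of these 4 genes. The calls of Pcsk1, Adcy2 and Prkcb were kept without GFP-negative replicate 2, while Pde1a missed the threshold there (edgeR adjusted p = 0.0591).

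**Figure D5:**
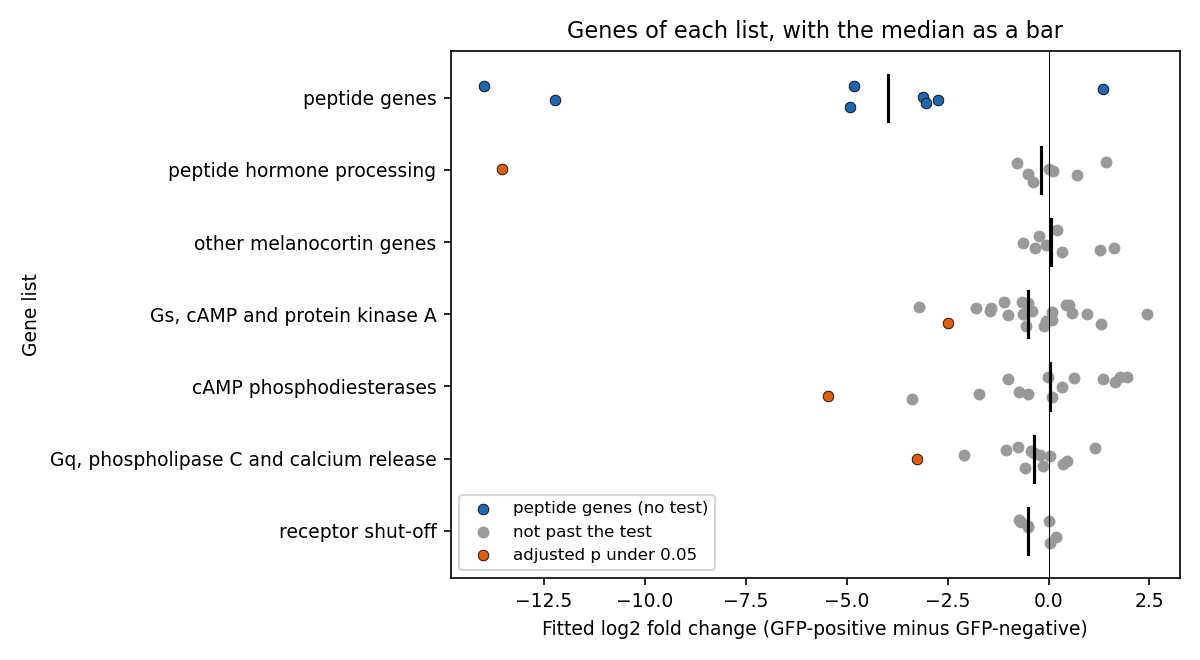
Fitted log2 fold change (GFP-positive minus GFP-negative) of the tested genes of each list, with the median of a list as a bar. The 8 peptide-system genes, shown with no test, have a median of -3.96, and the medians of the other lists lie between -0.51 and 0.07.

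For the most abundant gene of each system, the 4 coding genes with the closest pattern were found by the root mean square distance of log2 CPM, centred on each gene, over the 4 libraries. With 4 libraries many genes come close, so these are descriptions. Nearest to Crh were Cxcl12, a chemokine gene (distance 0.168), Nppa, Stk26 and Cbln4, a cerebellin gene (0.27). Cxcl12 averaged 7.76 ± 2.98 CPM in GFP-positive and 227 ± 144 CPM in GFP-negative cells. Nearest to Mc3r were Zcchc12 (0.132), Fstl5, Sparcl1 and Mpst (0.199), and Zcchc12 averaged 66.0 ± 26.1 CPM in GFP-positive and 533 ± 316 CPM in GFP-negative cells. Nearest to Prokr2 were 4 genes with 0 counts in both GFP-positive libraries, the muscarinic receptor gene Chrm2 (0.12), the neuromedin U receptor gene Nmur2, Pcsk1 and Rspo4 (0.657).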

How the data were processed

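The authors deposited raw counts, 1 whole number per Ensembl gene and library. Another table that they deposited holds signal, called CPM in its header. Its 18305 rows turned out to be the same counts on another scale: 100% were whole within 0.01 reads, and a count test on them called 200 genes. Per the submitters' processing notes, Trimmomatic, STAR 2.7.3a, MultiQC, limma and GRCm38 were involved. Libraries came from a SMART-Seq kit, per the labels' protocols. The counting tool and its strand setting were not stated, but none of the 9 genes shares exon bases with another annotated gene.

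Groups follow the fluorescence label and replicate numbers the titles. All 4 libraries of the series were used. The sample texts state 4 replicates and 3 litters, and any replicates beyond these libraries were not analysed here. GFP-positive minus GFP-negative was fitted with edgeR 4.0.16 (R 4.3.3): TMM, filterByExpr (minimum count 10, total 15) and the robust quasi-likelihood test with legacy = FALSE, on 2 residual degrees of freedom. Of 27925 counted genes 17940 were tested, with Benjamini-Hochberg adjustment and a threshold of 0.05. A standard error is the size of the log2 value divided by the root of F. Exon lengths and coordinates are from GENCODE M21, which held 55144 of the 55471 IDs. The steps were tested on simulated data. Alternatives were other scalings and filters, DESeq2 1.42.0, limma-voom 3.58.1, and leaving out each library or the rod markers. The legacy fit, the recovered reads and the amacrine marker scale were chosen after seeing the data.

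The members and lists were chosen with earlier results of these data known. Named were the 9 members, up to 4 called genes and the most abundant gene of each pathway list, the 4 nearest genes by pattern, and Gbx2. Pam, Pcsk2, Pomc, Agrp, Mc1r, Mc2r, Mc5r, Prok1 and the urocortins were named after their values were seen.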

Additional observations from a re-analysis of the deposited data

How the results depend on the processing

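The log2 fold changes of the 7 lower genes were below 0 in all 95 gene and setting pairs computed, and that of Crhbp above 0 in all 13. The number of genes called was less stable. Against 198 (42 higher, 156 lower) it was 106 with no filter on low counts (24 higher, 82 lower), 92 with limma-voom (17 and 75), 48 with the legacy quasi-likelihood fit (13 and 35) and 787 with DESeq2 (208 and 579). Leaving out a library gave 1 to 336 genes (0 to 106 higher, 1 to 230 lower). In the pathway lists, against 4 lower and 0 higher, DESeq2 called 9 lower and 3 higher, no filter and limma-voom 2 lower each and the legacy fit 1. RLE scaling, library size alone and the stricter filter each called 1 higher. Leaving out a library gave 0 to 4 lower calls in these lists and 0 higher in each case. The median log2 fold change of the members was -3.02 without GFP-negative replicate 6 and -4.61 without GFP-negative replicate 2. The causes were not tested, beyond the fewer samples or the different genes tested in each case. Relative to the amacrine marker sum, the log2 differences were -2.93 for Crh, -1.24 for Mc3r, -1.13 for Crhr1 and -0.74 for Crhr2. With library size as the only scaling, the median of all genes was 0.21, against 0.04, and that of the members -3.75.

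No paired analysis was possible because the fractions share only replicate number 2, and whether that number marks 1 animal is not stated. Between those libraries log2 CPM differed by -3.44 for Crh, -1.95 for Mc3r, -2.70 for Crhr1 and -3.09 for Crhr2. With 2 libraries a fraction, an exact permutation test of 1 gene cannot reach 0.05, so each call rests on the spread shared across genes.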
